A study of Mus musculus with 72 samples.

Results

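Whole-blood transcript levels of 15 female Balb/c mice given a high dose of lead (Pb) in drinking water were compared with those of 7 control mice bled at the same time, which are 22 of the 72 arrays of the series. The arrays were chosen by their titles, and every probe set named with exactly 1 gene symbol was eligible, which left 12588 genes after probe sets with low signal were removed. Mice were 9 weeks old and drank water with lead acetate trihydrate at 50 µg/mL (high dose) or 0 µg/mL (control) for 2 weeks. A low-dose group of 15 mice on 5 µg/mL was bled at the same collection, and all mice then drank Pb-free water for 2 more weeks before a second bleed of 7 control, 15 low-dose and 13 high-dose mice. The groups shared strain, sex, age, the bleeding site under the jaw, RNA stabilisation and the removal of globin transcripts. Per the labels, the first bleed covered only part of a control group of 15 mice, and they do not state whether the controls of the second bleed were the same animals. Whole blood is a mixture, so fewer cells of a type and less RNA per cell cannot be told apart.

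Lead enters red blood cells, where it is known to block enzymes of heme synthesis, above all Alad and ferrochelatase (Fech), and the pyrimidine nucleotidase Nt5c3. Cells that hold damaged proteins release heat shock factor 1, which binds short inverted repeats of the bases GAA in front of its target genes. Those targets include the inducible 70-kDa chaperone genes Hspa1a and Hspa1b and the co-chaperones of the Hsp40 and Hsp110 families that load and recycle it.

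Values are log2 signals, so a difference of 1 is a factor of 2. Correlations between arrays ran from 0.976 to 0.995, and no 2 arrays held identical values. In the high-dose group, replicates 9, 10 and 12 stood apart in their poly-A controls, bacterial transcripts spiked into the labelling reaction, with means of 12.9, 13.1 and 13.0 against 7.89 to 8.80 in the 7 controls. Counting these, 11 of the 15 high-dose arrays lay above the highest control. Over all arrays of each group the poly-A means were 9.68 ± 1.75 (SD, n = 15) at the high dose and 8.47 ± 0.37 (SD, n = 7) in controls (two-sided exact permutation test, p = 0.0328, adjusted over 8 array measures 0.148). The hybridisation controls gave 9.97 against 9.58 (exact p = 0.037, adjusted 0.148) and the 18S ribosomal RNA controls 7.79 against 7.00 (exact p = 0.0746, adjusted 0.182). The signal of the 3′ minus the 5′ probe set (3′ to 5′ difference) was 0.48 against 0.37 for Actb (exact p = 0.0909, adjusted 0.182). For Gapdh it was 0.56 against 0.54 (exact p = 0.80, adjusted 0.892). High-dose replicate 13 was highest in both, at 0.955 and 1.13, against control maxima of 0.53 and 0.75. High-dose replicates 6 and 13 had the widest relative log expression of the comparison, with interquartile ranges of 0.411 and 0.472. Blood markers were measured in most cases, with 28 of 29 B cell, 27 of 32 T cell, 26 of 32 platelet and 32 of 39 erythroid genes above the signal filter, against 13 of 30 genes of facial tissue (skin, muscle and salivary gland), which lies next to the bleeding site. Low-dose replicates 8 and 12 after exposure and 8 after recovery had poly-A controls as high, at 13.0, 13.2 and 13.1. The counts of calls and the 3 called genes are given below with and without the high-dose arrays that stood apart.

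After 2 weeks at the high dose, 3 genes rose and 0 fell: the heat shock chaperone Hspa1b, its Hsp40 co-chaperone Dnajb1, and Slc12a2, the sodium-potassium-chloride cotransporter that carries ions into cells. These 3 were 0.0238% of the 12588 genes tested (limma, Benjamini-Hochberg adjusted p under 0.05). At an unadjusted p under 0.05 there were 1193 genes, or 9.48%, 297 (2.36%) above control and 896 (7.12%) below it, where 5% of the genes would be 629. Differences were small across the genome, with 41.1% of the genes above 0, a median of -0.02 and 11 genes (0.0874%) at least 1.5-fold apart. By the brightest probe set of each gene, Hspa1b was the only one of which no high-dose array overlapped a control array (0.00794% of the genes). The number of calls, and the split between higher and lower genes, moved with the scaling of the arrays: quantile normalization of the deposited values gave 75 calls (30 higher, 45 lower), cyclic loess 68 (38 higher, 30 lower) and centring on the median of the tested genes 36 (27 higher, 9 lower). Hspa1b, Dnajb1 and Slc12a2 were among the calls under each of these.

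Single arrays also moved the count. Without control replicate 6 there were 26 calls (8 higher, 18 lower), among them S1pr1 and the B cell genes Cr2 and Ms4a1 on the lower side. Without control replicate 5 there were 4 (2 higher, 2 lower), and without control replicate 7 there were 5. On the high-dose side the count was 11 without replicate 1 or 6, 8 without replicate 5 or 10, 6 without replicate 7 or 13, and 5 without replicate 8 or 14. It was 5 without the 3 arrays of high poly-A controls, and 10 (9 higher, 1 lower) without the arrays whose relative log expression was wide.

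Hspa1b encodes the inducible form of Hsp70, which is scarce in resting cells and made within minutes of protein damage. Its level in the 7 controls was lowest at 3.71, with a median of 4.17 and a highest value of 4.62. The cut of the signal filter was 4.14, so the control values lay close to it. In the 15 high-dose arrays the lowest value was 5.04, the median 5.93 and the highest 7.60. Every high-dose array therefore lay above every control, and the spread was wider at the high dose, where replicates 2, 9 and 12 stood above 7. The log2 difference was 1.93 ± 0.20 (SE; limma adjusted p = 5.56e-11). Fitted to the 22 arrays of the comparison alone, it was 1.93 ± 0.27 (limma adjusted p = 0.000732). It was 2.03 ± 0.20 without the arrays whose relative log expression was wide and 1.80 ± 0.17 without the 3 arrays of high poly-A controls, of which replicates 9 and 12 were high and replicate 10, at 5.04, was the lowest of the group. The remaining Hspa1b probe sets, which were dimmer, also separated the groups, from 2.96 to 3.98 in controls against 4.20 to 6.91, and from 1.49 to 2.23 against 2.46 to 4.96.

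Hspa1a, the neighbouring copy of the gene, encodes a nearly identical protein, so the probes may bind transcripts of both. Its single probe set was too dim for the signal filter and so stood outside the main test. Without the filter it passed besides the 3 genes above, with a difference of 0.59 (limma adjusted p = 0.0313). It lay between 1.84 and 2.42 in controls and between 2.12 and 3.65 at the high dose, and 7 of 15 high-dose arrays exceeded all controls.

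The heat shock element is shown because 4 of the 20 genes with the smallest p are chaperones of this family: Hspa1b, Dnajb1, Hsph1 and Dnaja1. Shown are the 3 of these that held a match, with the neighbouring copy Hspa1a, while neither RefSeq window of Dnajb1 held the letters. Each line gives the 150 bases in front of an annotated start of transcription, from RefSeq's annotation of build GRCm38.p6, read 5′ to 3′ on the gene's own strand. RefSeq gives 2 starts for Hsph1 and 3 for Dnaja1, and the first whose window held a match is shown. Capitals mark a match to GAANNTTC or TTCNNGAA, 2 head-to-head or tail-to-tail GAA units. Both patterns read the same on either strand.
Hspa1b, chr17:34959239-34959388, minus strand: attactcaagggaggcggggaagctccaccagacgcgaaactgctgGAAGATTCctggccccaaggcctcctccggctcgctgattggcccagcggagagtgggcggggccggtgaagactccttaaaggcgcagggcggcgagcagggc
Hspa1a, chr17:34972157-34972306, minus strand: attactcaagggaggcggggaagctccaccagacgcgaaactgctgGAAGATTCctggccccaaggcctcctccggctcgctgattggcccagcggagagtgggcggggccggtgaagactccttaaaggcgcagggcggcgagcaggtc
Hsph1, chr5:149636337-149636486, minus strand: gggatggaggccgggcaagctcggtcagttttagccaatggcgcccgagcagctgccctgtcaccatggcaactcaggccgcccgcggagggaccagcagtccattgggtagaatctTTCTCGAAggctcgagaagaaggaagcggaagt
Dnaja1, chr4:40722318-40722467, plus strand: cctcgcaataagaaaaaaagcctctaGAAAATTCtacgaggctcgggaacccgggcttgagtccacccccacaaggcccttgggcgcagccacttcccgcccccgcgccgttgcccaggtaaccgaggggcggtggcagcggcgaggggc

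The Hspa1b and Hspa1a stretches were identical at 149 of 150 bases, and in both the match lay 104 to 97 bases before the start. It lay 33 to 26 bases before the start shown for Hsph1 and 124 to 117 bases before that shown for Dnaja1. Over 250 bases before the start, 4 of the 11 genes with a window among the 20 genes of smallest p held a match (36.4%: Hspa1b, Dnaja1, Hsph1 and Rtl6). Among the cytosolic chaperones it was 7 of 21 (33.3%), among all tested genes with a window 12.1%, and among all genes with a window 14.5%. A gene was counted if any of its windows held a match. Counted by window, the share was 12.8% of all 32851. A match is a run of letters and not a measured binding site.

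Dnajb1, the Hsp40 that hands unfolded proteins to Hsp70, ranged from 7.28 to 7.67 in controls, with a median of 7.57. At the high dose the lowest value was 7.35, the median 8.04 and the highest 9.00. All high-dose arrays but replicate 6 lay above every control. The difference was 0.64 ± 0.12 (limma adjusted p = 0.00358), 0.57 ± 0.11 without the arrays of high poly-A controls and 0.71 ± 0.11 without those of wide relative log expression. The second Dnajb1 probe set gave 0.57 ± 0.09, with 15 of 15 high-dose arrays above the controls. The call was lost when only the 22 arrays of the comparison were fitted (adjusted p = 0.14), when only the 37 arrays after exposure were fitted (0.0597), and with the 3′ to 5′ differences of Gapdh and Actb as covariates (0.0922).

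Slc12a2 lay between 5.42 and 6.06 in controls, with a median of 5.72, and between 5.93 and 6.76 at the high dose, with a median of 6.32. The groups overlapped in 2 of the 15 high-dose arrays. The difference was 0.55 ± 0.11 (limma adjusted p = 0.00737). Without the arrays of high poly-A controls it was 0.52 ± 0.11 (adjusted p = 0.0284), and without those of wide relative log expression 0.56 ± 0.11. It was 0.49 ± 0.11 without control replicate 5, the lowest control, and no longer past the threshold (adjusted p = 0.0567), as was also the case with the 3′ to 5′ covariates (0.0655). The other Slc12a2 probe sets, both dim, gave smaller differences of 0.21 ± 0.11 and 0.26 ± 0.12, and 4 and 0 high-dose arrays lay above the controls.

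**Figure D1:**
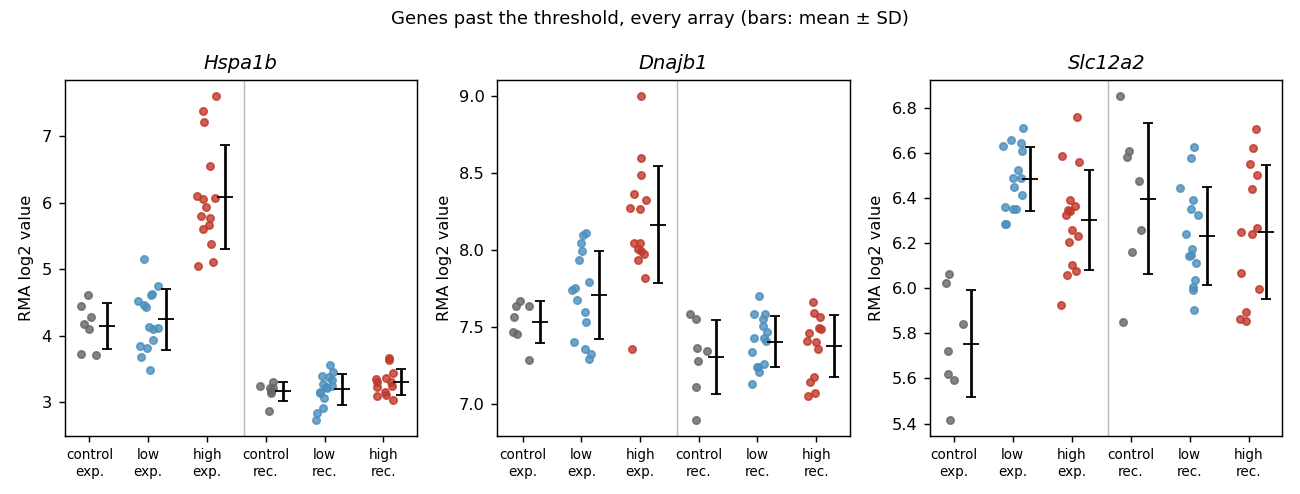
RMA log2 values of Hspa1b, Dnajb1 and Slc12a2 in every array, by dose and collection (exp., after exposure; rec., after recovery), with the mean and SD of each group beside its points. High-dose arrays after exposure lie above all 7 controls for Hspa1b (5.04 to 7.60 against 3.71 to 4.62), and Slc12a2 is also higher at the low dose.

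The same 3 genes differed in how they stood at the lower dose. The low dose shares its controls with the high dose, and each comparison is given by its own values. Hspa1b did not pass the threshold at the low dose, with a difference of 0.10 and arrays between 3.48 and 5.15, and the high dose exceeded the low dose by 1.84 (limma adjusted p = 1.86e-14). Dnajb1 was 0.18 above control at the low dose and did not pass (adjusted p = 0.581), and high exceeded low by 0.46 (adjusted p = 0.000327). Slc12a2 rose at the low dose, by 0.73 (adjusted p = 9.02e-06), and the doses were not told apart, with a difference between high and low of -0.18 (adjusted p = 0.117). Between the doses 18.7% of all genes passed the threshold (6.04% with the high dose above the low), and between low dose and control 1.3% (1.11% above control).

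After 2 weeks on Pb-free water none of the 3 differed between the high dose and control by the same test, with differences of 0.14 for Hspa1b, 0.07 for Dnajb1 and -0.15 for Slc12a2 (limma adjusted p between 0.606 and 0.821). In that comparison 0.429% of all genes passed. Hspa1b then lay between 3.04 and 3.67 in 13 high-dose arrays and between 2.87 and 3.30 in 7 controls, so the groups overlapped. All of these values lay below 4.14, the cut of the signal filter, so the comparison after recovery rested on weak signal. From exposure to recovery the high-dose difference of Hspa1b changed by -1.80 (limma interaction, adjusted p = 0.000176), the only gene of 12588 to pass (0.00794%). For Dnajb1 and Slc12a2 the change was -0.57 and -0.70 and did not pass (adjusted p = 0.854 and 0.105). Slc12a2 was at 6.30 ± 0.22 (SD, n = 15) in high-dose arrays after exposure and 6.25 ± 0.30 (SD, n = 13) after recovery, while controls were at 5.75 ± 0.24 and 6.40 ± 0.33 (SD, n = 7 each). The controls after exposure had the lowest mean of the 6 groups, and the other 5 lay between 6.23 and 6.48.

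Of 25 cytosolic Hsp70 and Hsp40 chaperone genes measured, 2 rose (Hspa1b and Dnajb1), against 0.0238% of all genes, 15 were higher than control and 10 lower, and the median difference was 0.04 against -0.02 over all genes. The list was written with earlier results of these data known. Hsph1, the Hsp110 that exchanges nucleotide on Hsp70, ranged from 8.04 to 8.48 in controls (median 8.33) and from 8.12 to 9.57 at the high dose (median 8.66). Its difference was 0.52 ± 0.12 and just missed the threshold (limma adjusted p = 0.0552), and 14 of 15 high-dose arrays exceeded all controls. Dnaja1, an Hsp40, ranged from 9.15 to 9.56 in controls (median 9.39) and from 9.39 to 10.3 at the high dose (median 9.73), a difference of 0.48 ± 0.11 (adjusted p = 0.0533), again with 14 arrays above the controls. These 4 genes made up the upper end of the list. Of the rest the Hsp110 relative Hspa4l had the smallest p, at 0.24 ± 0.12 (adjusted p = 0.511).

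Hsph1 and Dnaja1 differed between the doses. Hsph1 fell at the low dose, by -0.52 against control (limma adjusted p = 0.0104), so that high exceeded low by 1.04 (adjusted p = 1.99e-13). Dnaja1 was -0.18 from control at the low dose (adjusted p = 0.522) and high exceeded low by 0.66 (adjusted p = 9.51e-08). After recovery neither differed between high dose and control (0.21, adjusted p = 0.532, and -0.03, adjusted p = 0.917).

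No gene passed among 22 of the Hsp90 machinery, the chaperonins and the heat shock factors (12 higher, 10 lower, median 0.02). The Hsp90 co-chaperones Chordc1 and Ahsa1 stood at 0.24 ± 0.09 and 0.20 ± 0.06, the inducible Hsp90aa1 at 0.21 ± 0.08, and the ubiquitin ligase Stub1, which tags Hsp70 clients for degradation, at -0.24 ± 0.08. Their adjusted p-values lay between 0.278 and 0.363. Of 28 genes of the unfolded protein response of the endoplasmic reticulum, 8 were higher and 20 lower and none passed, with a median of -0.08. Its chaperones Hsp90b1, Hyou1 and Sdf2l1 stood at -0.30 ± 0.10, -0.19 ± 0.06 and -0.22 ± 0.08 (adjusted p from 0.314 to 0.343). Hsf1 is not analysed here.

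**Figure D2:**
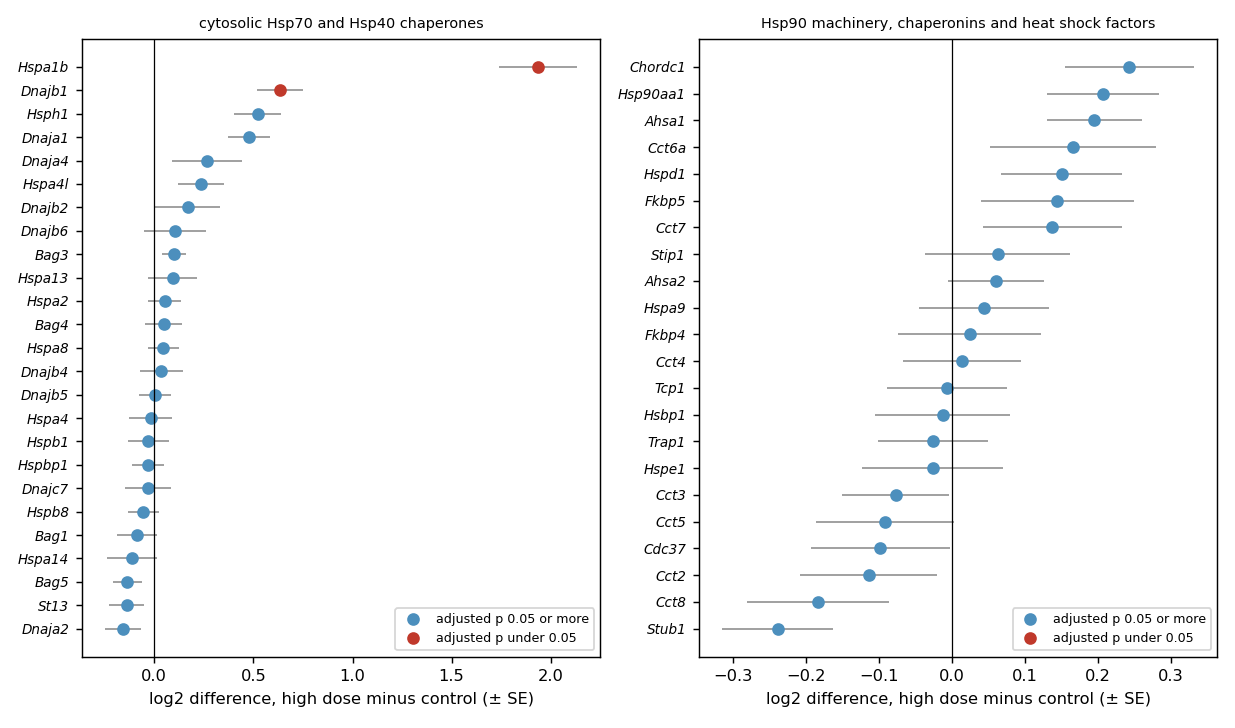
Log2 difference between high dose and control (± SE, limma) of each measured gene of the cytosolic Hsp70 and Hsp40 list and of the list of Hsp90 machinery, chaperonins and heat shock factors. Hspa1b at 1.93 and Dnajb1 at 0.64, in red, passed an adjusted p of 0.05, Hsph1 and Dnaja1 follow, and the right panel spans -0.24 to 0.24.

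Within the 15 high-dose arrays, the level of Hspa1b was set against that of each of the other 19 genes among the 20 of smallest p. Pearson's r passed in 5 of 19 relations after Benjamini-Hochberg adjustment (100000 permutations). The share of all tested genes that would pass in the same arrays was not computed, so 5 of 19 has no background beside it. For Dnaja1 r was 0.89 (permutation p = 2.00e-05, adjusted 0.00038; Spearman's rho 0.79, permutation p = 0.00076, adjusted 0.00722). For Slc5a3, the sodium-dependent importer of the osmolyte myo-inositol, r was 0.87 (permutation p = 0.00015, adjusted 0.00095; rho 0.74, permutation p = 0.00269, adjusted 0.017). Dnajb1 gave r = 0.80 (permutation p = 0.00015, adjusted 0.00095; rho 0.80, permutation p = 0.00059, adjusted 0.00722). Ccdc117 gave r = 0.75 (permutation p = 0.00125, adjusted 0.00594; rho 0.68, permutation p = 0.00764, adjusted 0.0363). Hsph1 gave r = 0.69 (permutation p = 0.00498, adjusted 0.0189), while its rho of 0.50 did not pass (permutation p = 0.0612, adjusted 0.194).

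Without the 2 arrays farthest from the median Hspa1b level, r was 0.82 for Dnaja1, 0.87 for Slc5a3, 0.61 for Dnajb1, 0.49 for Ccdc117 and 0.69 for Hsph1. The relations with Dnajb1 and Ccdc117 thus rested in part on those arrays. Without the 3 arrays of high poly-A controls the values were 0.83, 0.77, 0.73, 0.75 and 0.47 in the same order, so that of Hsph1 rested in part on these 3. Nsmce1 and Tubb6 came next, with r = 0.60 and -0.59, and did not pass (permutation p = 0.0173 and 0.0201, adjusted 0.0546 each). Slc12a2 gave r = 0.41 (permutation p = 0.131, adjusted 0.226; rho 0.29, permutation p = 0.301, adjusted 0.52), and without the 2 farthest arrays -0.20. Fos and Thbd gave 0.06 and 0.02 (permutation p = 0.823 and 0.934, adjusted 0.868 and 0.934; rho 0.21 and 0.14, permutation p = 0.452 and 0.631). None of 8 array measures passed against Hspa1b in the same arrays, and the smallest adjusted permutation p was 0.157. Those of largest r were the median of relative log expression (r = -0.59, permutation p = 0.0200) and the array median (r = -0.54, permutation p = 0.0392). In the 15 low-dose arrays 1 of 19 relations passed by Pearson's r, that with Dnajb1 (r = 0.75, permutation p = 0.00144, adjusted 0.0274; rho 0.73, permutation p = 0.00275, adjusted 0.0261; 0.72 without the 2 farthest arrays). By rho Thbd passed there too (rho 0.73, permutation p = 0.00275, adjusted 0.0261), with r = 0.65 (permutation p = 0.00834, adjusted 0.0528; 0.76 without the 2 farthest arrays).

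**Figure D3:**
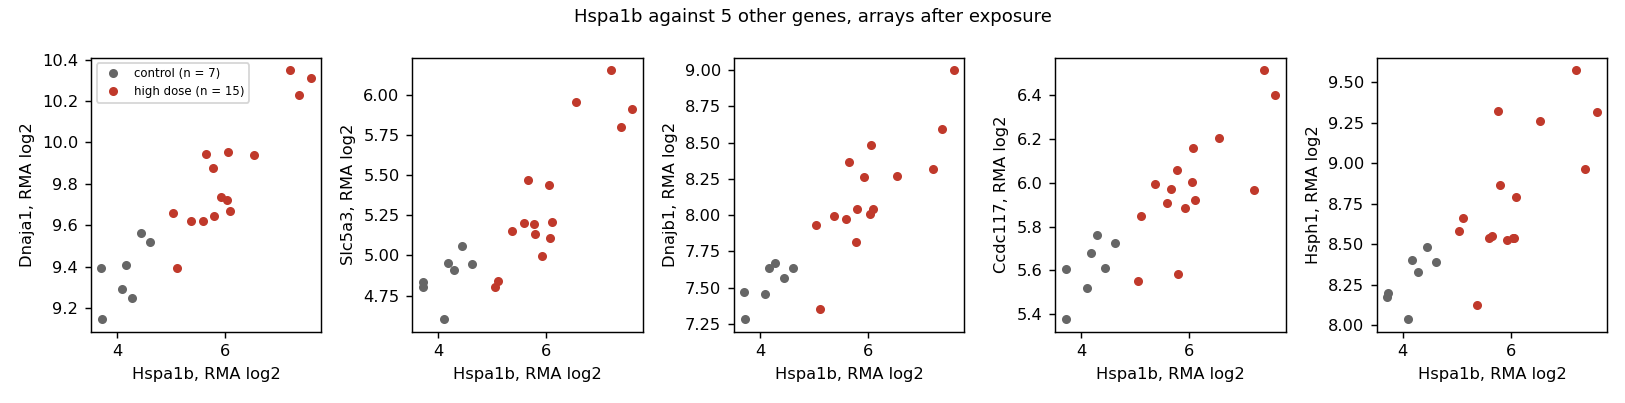
Level of Hspa1b (x axis, RMA log2) against those of Dnaja1, Slc5a3, Dnajb1, Ccdc117 and Hsph1 (y axes, RMA log2) in the 7 control and 15 high-dose arrays after exposure. Within the high-dose arrays, r runs from 0.69 for Hsph1 to 0.89 for Dnaja1, and the highest value of each panel belongs to 1 of the 3 arrays with Hspa1b above 7.

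Of the 20 genes with the smallest p, 17 did not pass the threshold, with adjusted p from 0.0511 to 0.0955, of which 7 stood above control and 10 below. Thbd, thrombomodulin, an endothelial and monocyte receptor that turns thrombin against clotting, lay between 5.03 and 5.44 in controls (median 5.24) and between 5.34 and 6.16 at the high dose (median 5.75). The difference was 0.45 ± 0.10 (limma adjusted p = 0.0511), with 13 of 15 arrays above the controls, and at the low dose Thbd rose by 0.51 (adjusted p = 0.00152). Ccdc117 ranged from 5.38 to 5.76 in controls (median 5.61) and from 5.55 to 6.52 at the high dose (median 5.97). Its difference of 0.39 ± 0.09 also missed the threshold (adjusted p = 0.0511), and at the low dose it was 0.10 (adjusted p = 0.721).

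Slc5a3 ranged from 4.60 to 5.06 in controls (median 4.91) and from 4.80 to 6.16 at the high dose (median 5.20), a difference of 0.49 ± 0.12 (limma adjusted p = 0.0769). At the low dose it was -0.16 (adjusted p = 0.649), and high exceeded low by 0.65 (adjusted p = 8.72e-07). Its other probe sets, both dim, gave 0.10 and 0.03. Of 17 genes of volume-regulated ion transport, Slc12a2 alone passed, 9 were higher and 8 lower, and the median was 0.01. Oxsr1, a kinase that activates Slc12a2, stood at -0.15 ± 0.07 (adjusted p = 0.468). Of 13 genes of thrombomodulin and coagulation none passed (9 higher, 4 lower, median 0.04), and Serpinb2 stood at -0.37 ± 0.16 (adjusted p = 0.453). Tubb6, a beta tubulin, stood at 0.37 ± 0.09 (adjusted p = 0.093), and at the low dose it rose by 0.36 (adjusted p = 0.0266).

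On the lower side, Dok2, an adaptor that dampens kinase signalling in blood cells, ranged from 8.63 to 9.10 in controls (median 8.66) and from 8.06 to 8.66 at the high dose (median 8.45). The difference was -0.33 ± 0.08 (limma adjusted p = 0.0552), with 13 of 15 arrays below every control. S1pr1, the receptor by which lymphocytes leave lymphoid tissue into blood, ranged from 6.52 to 7.53 in controls (median 6.84) and from 6.30 to 6.74 at the high dose (median 6.45), a difference of -0.43 ± 0.10 (adjusted p = 0.0769). For S1pr1 8 of 15 arrays lay below the controls. The other 8 were Decr1, a mitochondrial reductase of fatty acid oxidation, at -0.34 ± 0.08, Rtl6 at -0.33 ± 0.08, Nfya, a subunit of the CCAAT-binding factor, at -0.35 ± 0.09, Nsmce1 at -0.42 ± 0.10, Tbc1d16 at -0.24 ± 0.06, Rbsn at -0.31 ± 0.08, Il12a, a subunit of interleukin 12, at -0.38 ± 0.09, and the chromatin remodeller Chd3 at -0.31 ± 0.08. At the low dose none of these 10 lower genes passed (differences from -0.24 to -0.02).

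The immediate early gene Fos, a transcription factor subunit made within minutes of many stimuli, ranged from 5.97 to 7.85 in controls (median 6.77) and from 7.28 to 8.14 at the high dose (median 7.70). The control values spread over almost the whole range, so 4 of 15 high-dose arrays lay above every control. The difference was 0.80 ± 0.18 (limma adjusted p = 0.0552). At the low dose Fos rose by 1.28 (adjusted p = 7.35e-06), more than at the high dose, with high below low by -0.48 (adjusted p = 0.0139). Dusp1, a phosphatase of stress kinases, followed the same order, with 0.61 ± 0.16 at the high dose (adjusted p = 0.0955), 1.01 at the low dose (adjusted p = 3.48e-05) and -0.39 between them (adjusted p = 0.0195). Over 26 immediate early genes, 11 were higher and 15 lower, none passed and the median was -0.02, and Atf3 stood at 0.26 ± 0.08 (adjusted p = 0.273). At an unadjusted p under 0.05 there were 3 higher and 3 lower, against 2.36% and 7.12% of all genes.

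Of 22 glucocorticoid-response genes, 16 were higher and 6 lower, none passed, and the median was 0.07 against -0.02 over all genes. At an unadjusted p under 0.05 there were 7 higher and 1 lower, against 2.36% and 7.12% of all genes. Cxcr4, the chemokine receptor that holds white cells in bone marrow, ranged from 7.81 to 8.77 in controls (median 8.48) and from 8.20 to 9.70 at the high dose (median 9.03). Its difference was 0.62 ± 0.16 (limma adjusted p = 0.122), with 12 of 15 arrays above the controls, and at the low dose it rose by 0.75 (adjusted p = 0.00438). The clock gene and hormone target Per1 stood at 0.31 ± 0.08 (adjusted p = 0.103), the transcription factor Cebpb at 0.42 ± 0.11 (0.149) and Tsc22d3, which encodes the glucocorticoid-induced leucine zipper protein, at 0.36 ± 0.11 (0.247). At the low dose Cebpb and Tsc22d3 rose, by 0.47 and 0.51 (adjusted p = 0.0163 and 0.00438).

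Transcripts of the known targets of lead did not pass, and enzyme activity was not measured. Alad ranged from 7.75 to 8.50 in controls (median 8.08) and from 7.45 to 9.11 at the high dose (median 8.22), a difference of 0.11 ± 0.13 (limma adjusted p = 0.834). Alas2, the first enzyme of heme synthesis in red cells, and Fech were bright and nearly constant, at -0.02 ± 0.04 each (adjusted p = 0.918 and 0.913), with signals near the upper end of the scale in every array (from 13.4 to 13.8). The sign of both small differences turned under cyclic loess, to 0.026 and 0.025. Nt5c3 stood at 0.20 ± 0.19 (adjusted p = 0.787), the transferrin receptor Tfrc at 0.18 ± 0.29 (0.894), and the metallothioneins Mt1 and Mt2, which bind metals, at 0.06 ± 0.08 and -0.09 ± 0.12 (0.862 and 0.842). Alad, Nt5c3, Tfrc and Mt1 turned below 0 once marker means entered the fit. Hmox1, heme oxygenase, was below the signal filter, from 3.64 to 4.14 in controls and from 3.47 to 4.14 at the high dose, and was not tested.

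Of 13 heme synthesis genes 9 were higher and 4 lower, with a median of 0.11. Cpox, which acts late in the pathway, stood at 0.16 ± 0.07 and the mitochondrial transporter Abcb10 at 0.27 ± 0.11 (limma adjusted p = 0.449 and 0.434). Of 18 iron-handling genes 9 were higher and 9 lower (median -0.02), with the iron sensor Aco1 at -0.33 ± 0.11 and Hfe at 0.29 ± 0.11 (adjusted p = 0.329 and 0.361). Of 32 reticulocyte and erythroid genes 28 were higher and 4 lower, with a median of 0.13. Of 12 globin genes, whose transcripts had been depleted, 5 were measured, and these 5 were higher (median 0.14). Among them Hbb-bh1 lay near the signal cut of 4.14, with means of 3.87 in controls and 4.28 at the high dose. No gene of these 4 lists passed. Gata1, the master factor of red cell development, stood at 0.22 ± 0.08 (adjusted p = 0.35), and the membrane skeleton gene Add2 at 0.42 ± 0.21 (adjusted p = 0.526). The mean of the erythroid list, relative to all 72 arrays, ran from -0.19 to 0.46 in controls and from -0.34 to 0.70 at the high dose, so the groups overlapped.

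Markers of white cells were also spread widely among the controls. Of 28 B cell genes 26 were lower at the high dose and 2 higher, with a median of -0.20, and none passed (7 lower at an unadjusted p under 0.05, against 7.12% of all genes). Cr2, the complement receptor of B cells, ranged from 5.68 to 7.80 in controls (median 6.89) and from 6.12 to 7.22 at the high dose (median 6.52), a difference of -0.41 ± 0.14 (limma adjusted p = 0.35). No high-dose array lay below the lowest control for Cr2 or for Cd22, at -0.33 ± 0.14 (adjusted p = 0.434). The B cell list mean ran from -1.26 to 0.40 in controls and from -0.85 to 0.00 at the high dose. Leaving out 1 control at a time moved the median of the list between -0.36 (without replicate 6) and -0.06 (without replicate 3), with -0.30 without replicate 5 and -0.07 without replicate 1. In the high-dose group the chemokine receptor Ccr6, which B cells carry, stood at -0.51 ± 0.14 (adjusted p = 0.149).

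Of 27 T cell genes 26 were lower and 1 higher (median -0.12, none passed), with Cd27 at -0.33 ± 0.10 and Cd5 at -0.30 ± 0.11 (limma adjusted p = 0.275 and 0.359). Of 23 genes of MHC class II and antigen presentation 15 were lower and 8 higher (median -0.12, none passed). The invariant chain Cd74 stood at -0.32 ± 0.13 (adjusted p = 0.425), and Itgax, an integrin of dendritic cells and some monocytes, at 0.36 ± 0.09 (adjusted p = 0.127), with 12 of 15 arrays above the controls. Of 29 monocyte and macrophage genes 21 were higher and 8 lower, with a median of 0.10 that fell to 0.05 without control replicate 5. Fcgr4, an Fc receptor of non-classical monocytes, ranged from 6.63 to 7.30 in controls (median 7.21) and from 6.94 to 8.26 at the high dose (median 7.49), a difference of 0.43 ± 0.12 (adjusted p = 0.215), with 14 arrays above the controls. Ccr2, which marks classical monocytes, stood at -0.37 ± 0.14 (adjusted p = 0.394).

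Among 26 neutrophil genes 20 were lower and 6 higher (median -0.06), among 20 NK and cytotoxic genes 14 were higher (median 0.06), and among 26 platelet genes 16 were higher (median 0.01). None of these passed. The 13 genes of facial tissue had a median of 0.00 (5 higher, 8 lower). How far the cell makeup of the blood bears on the genes described above was not tested as a cause. With the means of 7 marker lists as covariates Hspa1b stood at 1.92 ± 0.22, Dnajb1 at 0.75 ± 0.11 and Slc12a2 at 0.45 ± 0.08, each past the threshold, and the count of calls was 240 (171 higher, 69 lower).

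**Figure D4:**
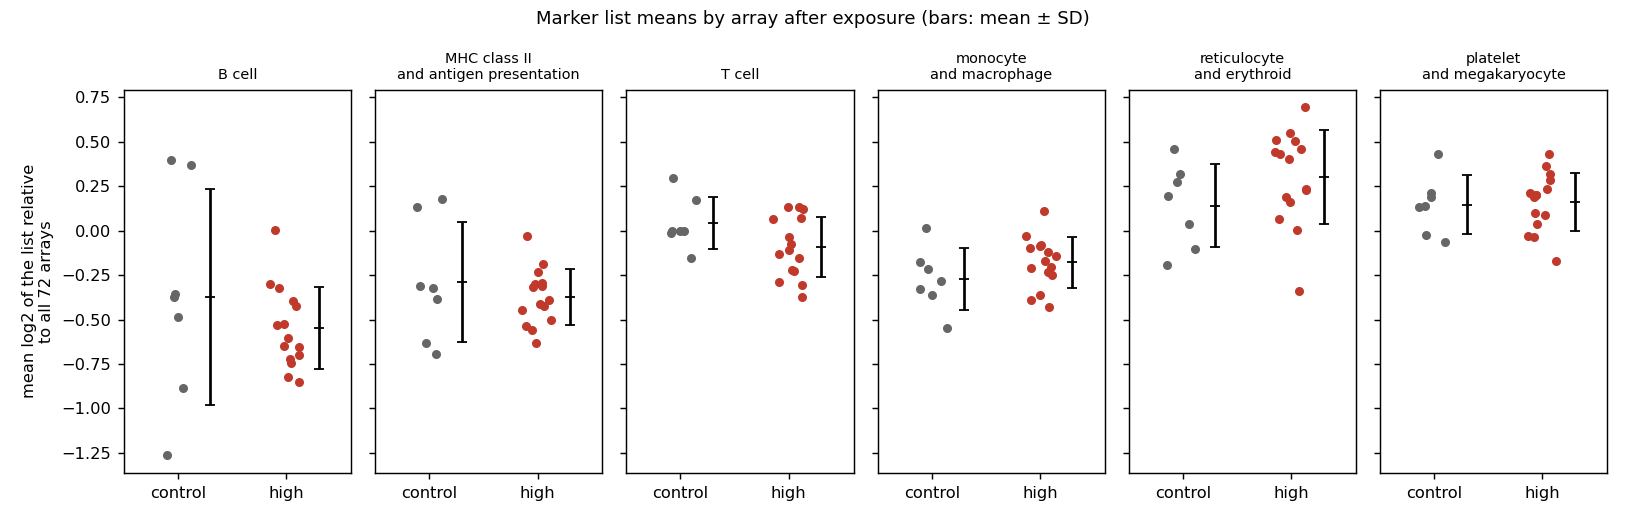
Mean log2 level of 6 marker lists in each array, relative to all 72 arrays, in the 7 control and 15 high-dose arrays after exposure, with the mean and SD beside the points. Control arrays spread from -1.26 to 0.40 for the B cell list, wider than the high-dose arrays, and the groups overlap in every panel.

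Genes of basal cell machinery stood slightly below control. Of 32 ribosomal protein genes 30 were lower (median -0.11), of 35 proteasome genes 31 (median -0.12) and of 62 oxidative phosphorylation genes 53 (median -0.07), against 58.9% of all genes. None passed. Rpl19 stood at -0.16 ± 0.06, the proteasome subunit Psmb7 at -0.35 ± 0.12, and the respiratory chain subunits Ndufa9 and Uqcrb at -0.27 ± 0.10 and -0.24 ± 0.09 (limma adjusted p from 0.314 to 0.376). The medians were -0.07, -0.08 and -0.02 after cyclic loess, where the median of all genes was 0.00. Of 29 cell cycle genes 23 were higher and 6 lower (median 0.09, none passed). Mki67, made in dividing cells, stood at 0.36 ± 0.18 and the replication helicase subunit Mcm2 at -0.26 ± 0.07 (adjusted p = 0.518 and 0.145), so members of this list stood on both sides.

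**Figure D5:**
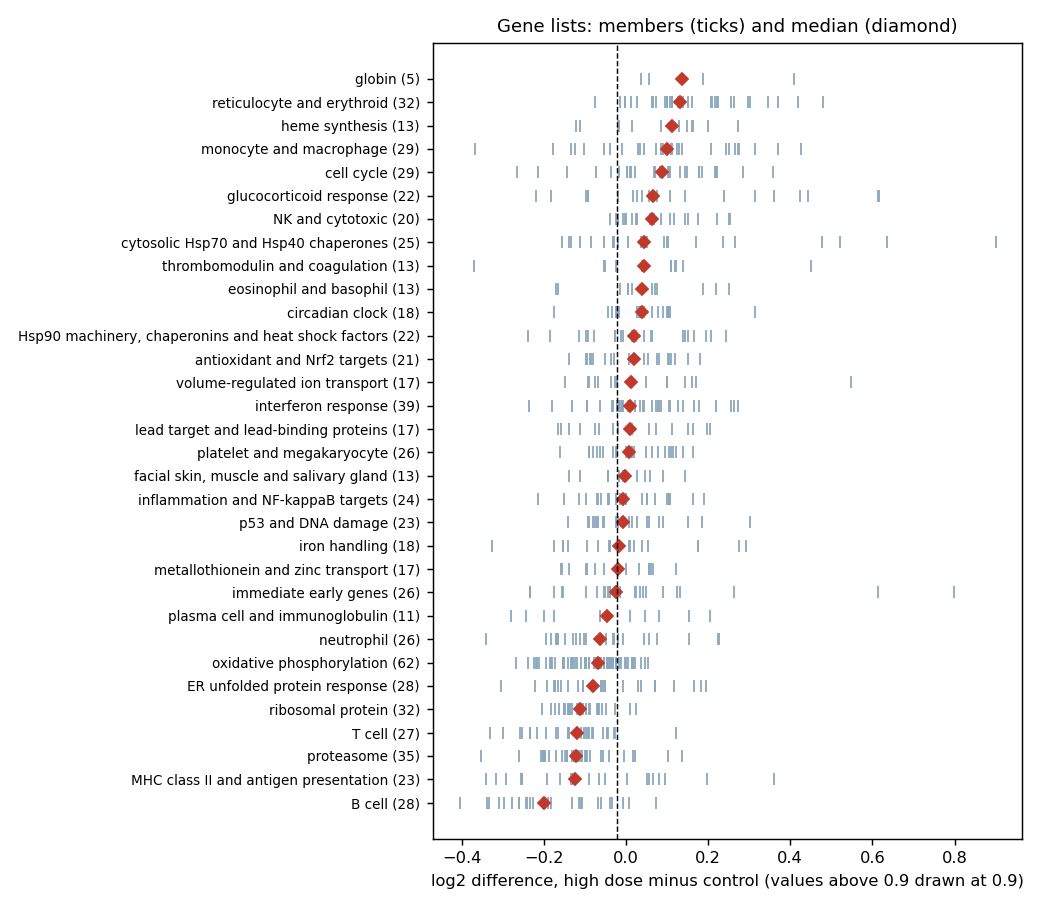
Log2 difference between high dose and control of each measured gene (ticks) and the median (diamond) in 32 gene lists, with the number of measured genes in brackets and the median of all tested genes, -0.02, as a dashed line. Medians run from -0.20 for B cell genes to 0.14 for the 5 globin genes measured after globin removal, and Hspa1b, at 1.93, is drawn at the right edge.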

How the data were processed

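RNA of each blood sample (150 ng) was amplified, labelled with biotin and hybridised to oligonucleotide arrays. The deposited values are log2 signals that the authors made by RMA (robust multi-array averaging), as the submitters' processing notes record. Which version or background step was used is not stated there. The 45101 probe sets were named through platform annotation: 34945 had 1 gene symbol, 932 several and 9160 were not listed, and 64 array controls were left out.

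Probe sets had to exceed 4.14, the median of all values, in at least 7 arrays, and the brightest probe set stood for each gene. limma 3.58.1 in R 4.3.3 fitted 1 mean for each of the 6 groups over all 72 arrays (66 residual degrees of freedom, empirical Bayes), with Benjamini-Hochberg adjustment over 12588 genes. Differences are given ± SE. The numbers of arrays per group limit the precision, and p-values measure the spread between blood samples, pooled over the 6 groups. Array measures were compared by exact permutation (170544 arrangements), with scipy 1.17.1. In simulated data for this comparison on 12588 genes, 50 genes were changed at each of 0.25, 0.5, 1 and 2 (log2), all at once, with independent normal noise. The test recovered 30% of the changes of 0.25, 86% of 0.5 and 100% of 1 and of 2, and called 9 unchanged genes. So many true changes loosen the adjusted threshold. With only 3 calls in the measured data, these shares overstate the recovery there.

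Named genes were those past the threshold, the 20 of smallest p, the 10 highest and 10 lowest differences at an unadjusted p under 0.05, genes called after each rescaling, up to 5 members of smallest p per list, genes whose groups did not overlap, and 10 genes named whatever their result. Ms4a1 was named after its values were seen. The comparison, the 32 gene lists and the tests were chosen with earlier results of these data known. Replicate numbers in the titles name different mice across dose groups and did not pair the arrays. Alternatives covered normalization, filter, probe set, model, covariates and arrays left out.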

Additional observations from a re-analysis of the deposited data

Results flagged for a closer look

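Among 67 values tested for a single control array far from the other controls (Dixon's test, n = 7), 3 stood out, about the number that chance gives at 1 in 20. Dok2 was 9.10 in control replicate 3 and between 8.63 and 8.82 in the others. Rtl6 was 5.58 in control replicate 1 and between 5.10 and 5.28 in the others. The mean of the eosinophil and basophil list was 0.51 in control replicate 7. Neither gene passed the threshold in the comparison, and the high-dose group was too large for that test.

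The high-dose difference of Hspa1b changed by -1.80 between exposure and recovery (interaction in limma, adjusted p = 0.000176), with a difference of 1.93 after exposure and 0.14 after recovery. Control arrays of Hspa1b were themselves lower after recovery, at 3.16 ± 0.14 (SD, n = 7) against 4.15 ± 0.34 (SD, n = 7). The 3′ to 5′ differences of control arrays also shifted between the collections. That of Gapdh ran from 0.39 to 0.75 after exposure and from 0.69 to 1.01 after recovery. For Actb the ranges were 0.22 to 0.53 and 0.56 to 0.87. The part of this shift in comparisons between collections was not tested as a cause.

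The spiked poly-A controls, which no comparison of genes uses, were at 12.9, 13.1 and 13.0 in high-dose replicates 9, 10 and 12, above the highest control array at 8.80. Hspa1b was 7.21, 5.04 and 7.60 in these arrays, which include both the lowest and the highest of the group. The part of the labelling reaction in the results was not tested beyond leaving these arrays out, which gave 5 calls.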

How the results depend on the processing

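Over 42 alternatives, Hspa1b passed the threshold in 42, Slc12a2 in 40 and Dnajb1 in 39, with differences of 1.69 to 2.03, 0.45 to 0.60 and 0.54 to 0.75. Counts of calls, against 3 (3 higher, 0 lower), were 75 (30, 45) with quantile normalization, 68 (38, 30) with cyclic loess, 7 (6, 1) with a floor of 6, 2 (2, 0) with 22 arrays, 13 (13, 0) with array weights, 5 (5, 0) with trend and robust moderation, 5 (5, 0) with each probe set by itself, 11 (7, 4) with the mean of a gene's probe sets, 15 (15, 0) with 18S, 1 (1, 0) with 3′ to 5′ and 6 (6, 0) with hybridisation covariates, 240 (171, 69) with marker means, and 10 (9, 1) without wide arrays. The 5 calls with each probe set by itself were probe sets of the same 3 genes, Hspa1b, Dnajb1 and Slc12a2. Alternatives chosen after seeing the data gave 36 (27, 9) when centred on tested genes and 5 (5, 0) without the poly-A arrays. Leaving out 1 array gave 3 to 26 calls, 2 to 9 higher and 0 to 18 lower. The count was 4 without a filter, which added Hspa1a, and 3 when centred on all probe sets and 3 with the 37 arrays after exposure, of which 2 were among the 3 genes called in the report. The cause was not tested. With the replicate block the count was 4, and with dose group and number as a random block 3 (correlation 0.0212); same-numbered control and high-dose arrays deviated together with r over 0.1 in 2 of 7 pairs and no control correlated best with its own number, so the numbers did not pair. Signs turned only for small uncalled differences: Alas2 and Fech were 0.026 and 0.025 with cyclic loess, 0.017 and 0.016 when centred on tested genes and 0.010 and 0.0035 without the poly-A arrays, and Fech 0.061 with the mean of probe sets. Alad and Tfrc were -0.056 and -0.064 with 3′ to 5′ covariates. Alad, Mt1, Nt5c3 and Tfrc were -0.035, -0.059, -0.090 and -0.11 with marker means, and leaving out 1 array moved Tfrc from -0.042 (without control replicate 7) to 0.35. At the low dose Hspa1b was -0.0080 with the replicate block, -0.011 with weights and -0.10 with 3′ to 5′ covariates. The difference of Slc12a2 between the doses was 0.064 with marker means. The remaining differences of named genes between high dose and control kept their sign. So did the remaining values of Hspa1b, Dnajb1 and Slc12a2 in the other comparisons. For the other named genes those comparisons were not recomputed. Of the recomputed list medians 1311 stayed within the spread between arrays and 1 moved beyond it, that of plasma cell genes with a floor of 6 (-0.18).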

Other observations

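Stress and defence pathways other than the cytosolic chaperones held no gene past the threshold. Of 21 antioxidant genes and targets of Nrf2, the factor that switches on detoxification genes, 12 were higher and 9 lower (median 0.02). Of 17 genes of metallothioneins and zinc transport 8 were higher and 9 lower (median -0.02), and of 17 lead target and lead-binding proteins 9 were higher and 8 lower (median 0.01). Of 39 interferon-response genes 22 were higher and 17 lower (median 0.01), of 24 inflammation genes 10 and 14 (median -0.01), and of 23 p53 and DNA damage genes 10 and 13 (median -0.01). Of 18 circadian clock genes 12 were higher and 6 lower (median 0.04), of 13 eosinophil and basophil genes 10 and 3 (median 0.04), and of 11 plasma cell and immunoglobulin genes 5 and 6 (median -0.05).

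Among genes with an unadjusted p under 0.05, the lowest differences besides Ccr6, S1pr1 and Nsmce1 were B3gnt8, a glycosyltransferase, at -0.48 ± 0.14, Zcchc10 at -0.45 ± 0.15, Ankrd49 at -0.45 ± 0.15, the kinase Sbk1 at -0.44 ± 0.13, the zinc finger gene Zfp62 at -0.43 ± 0.15, an immunoglobulin kappa segment at -0.43 ± 0.15 and the mitochondrial factor Mterf2 at -0.43 ± 0.12. None passed in limma (adjusted p from 0.183 to 0.335). Nagpa, an enzyme of lysosomal sorting, stood at 0.50 ± 0.25 (adjusted p = 0.511), while its other probe set gave -0.07.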
